A study of Mus musculus with 167 samples.

Results

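miR-676 is a small microRNA (miRNA) family of a single hairpin with a 3' and a 5' arm, mmu-miR-676-3p and mmu-miR-676-5p, and its abundance was followed here through lung, heart, brain, white blood cells (WBC) and red blood cells (RBC) of irradiated and sham irradiated mice. The members are the 2 rows of that name among the 1915 miRNAs counted in each of 5 tissue tables, and both passed the filter on low counts in each tissue. They were chosen on earlier values of these same libraries, because both arms were lower in irradiated than in sham irradiated lung, so the lung irradiation values below are a description without a test.

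The mice were C3H (C3Hf/Sed/Kam) females and C57 (C57Bl/6) males and females, young adults given either one dose of whole thorax lung irradiation (WTLI), in which the body outside the thorax was shielded, or a sham procedure. Tissue came from survivors, taken in month 4 (C3H) or month 6 (C57), so strain, time and cohort cannot be told apart. In lung, heart, brain and RBC there were 8 sham and 7 irradiated C3H libraries and 15 sham and 5 irradiated C57 libraries. In WBC there were 5 and 6 C3H libraries and 11 and 5 C57 libraries, which gives 167 libraries from 35 animals. Of the 5 irradiated C57 mice, 4 were male, whereas the sham C57 mice were 8 males and 7 females. The methods give males as younger than females at the start, so sex and age cannot be told apart. Sample titles also carry a letter, A or B, that the labels and methods do not explain.

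The libraries held 1794995 to 7865102 miRNA counts, and the fewest counts behind a value were 79 for miR-676-3p and 5 for miR-676-5p, so the 5p values carry the larger counting error. Levels are given as RPM, the reads of a miRNA per 1000000 miRNA counts of the library. These are bulk samples, in which fewer cells of a type and less RNA per cell cannot be told apart. The tissue labels were checked against marker miRNAs. miR-34c-5p was higher in 35 of 35 lung libraries, miR-200c-3p in 34 of 35, miR-208a-3p in 35 of 35 hearts and miR-124-3p in 35 of 35 brains than in any library of another tissue. By the same measure miR-223-3p set apart 13 of 27 WBC libraries, and miR-451a set apart 0 of 35 RBC libraries, so these markers did not separate the blood fractions. One lung library stood apart: C57 sham replicate 4 was the shallowest of the lung libraries, at 2024219 counts, and the lowest in miR-676-3p.

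A miRNA gene is transcribed as a hairpin, from which Drosha and Dicer cut a short duplex; either strand can then be loaded into an Argonaute protein, where bases near its 5' end, the seed, pair with target mRNAs. The Mir676 hairpin lies on the plus strand at chrX:100381097-100381185 (GRCm38, which is mm10), inside the protein-coding gene Eda on the same strand. Eda encodes ectodysplasin A, a TNF-family ligand needed for hair, teeth and sweat glands. In 9 of the 9 protein-coding Eda transcripts of GENCODE M21 the hairpin falls in intron 2 and overlaps no exon, 70998 bases after the end of exon 2. The nearest downstream exon starts 270 bases after the hairpin in 6 of those transcripts and 8517 bases after it in the other 3.

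The mature 3p sequence and the hairpin are shown because they carry both measured arms. The first line, from RefSeq (GRCm38.p6, chrX:100381151-100381171), has the seed (bases 2 to 8) in capitals, and the second has the whole 3p arm in capitals within the hairpin.
miR-676-3p: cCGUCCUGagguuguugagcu
Mir676 hairpin: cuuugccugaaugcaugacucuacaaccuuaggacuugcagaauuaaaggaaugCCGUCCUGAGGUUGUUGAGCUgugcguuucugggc
Of 1679 mature mouse miRNAs in the reference table, 0 others had the same bases 2 to 8. A single other miRNA, mmu-miR-7036a-3p, shared bases 2 to 7, and it had no count in any of the 167 libraries.

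In lung, miR-676-3p and miR-676-5p were both lower after WTLI in both strains. For miR-676-3p, the 4 letter A sham C3H lungs had 233, 182, 281 and 229 RPM and the 4 letter B lungs 259.8, 252, 330.1 and 276 RPM. The irradiated C3H lungs had 159.8, 209 and 204 RPM with letter A and 148, 109.8, 147 and 125 RPM with letter B. The 4 irradiated letter B lungs lay below each sham C3H lung, and 2 of the 3 letter A lungs lay within the sham range. The mean was 255 ± 43.6 RPM (SD, n = 8) in sham and 158 ± 37.4 RPM (SD, n = 7) in irradiated libraries of C3H.

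In C57 lung the sham libraries ranged from 39.0 to 305 RPM of miR-676-3p with a median of 183 RPM (n = 15). The 5 irradiated C57 lungs had 51.9, 164, 87.6, 70.9 and 80.3 RPM. Each was below the sham median, but the groups overlapped, since the lowest library of all 20 was a sham one, replicate 4. Means were 187 ± 75.4 RPM (SD, n = 15) and 91.0 ± 43.1 RPM (SD, n = 5).

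miR-676-5p, the scarcer arm, averaged 10.5 ± 2.39 RPM (SD, n = 8) in C3H lung after the sham procedure and 6.02 ± 2.12 RPM (SD, n = 7) after WTLI, where 5 of the 7 libraries were below the lowest sham value of 6.25 RPM. In C57 lung the sham mean was 9.17 ± 2.76 RPM (SD, n = 15). The irradiated C57 lungs had 5.39, 8.68, 6.44, 7.96 and 2.18 RPM, and the single female library was the lowest. The arms did not rank the irradiated C57 lungs alike, as the female library was the third highest in 3p and the lowest in 5p.

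**Figure D1:**
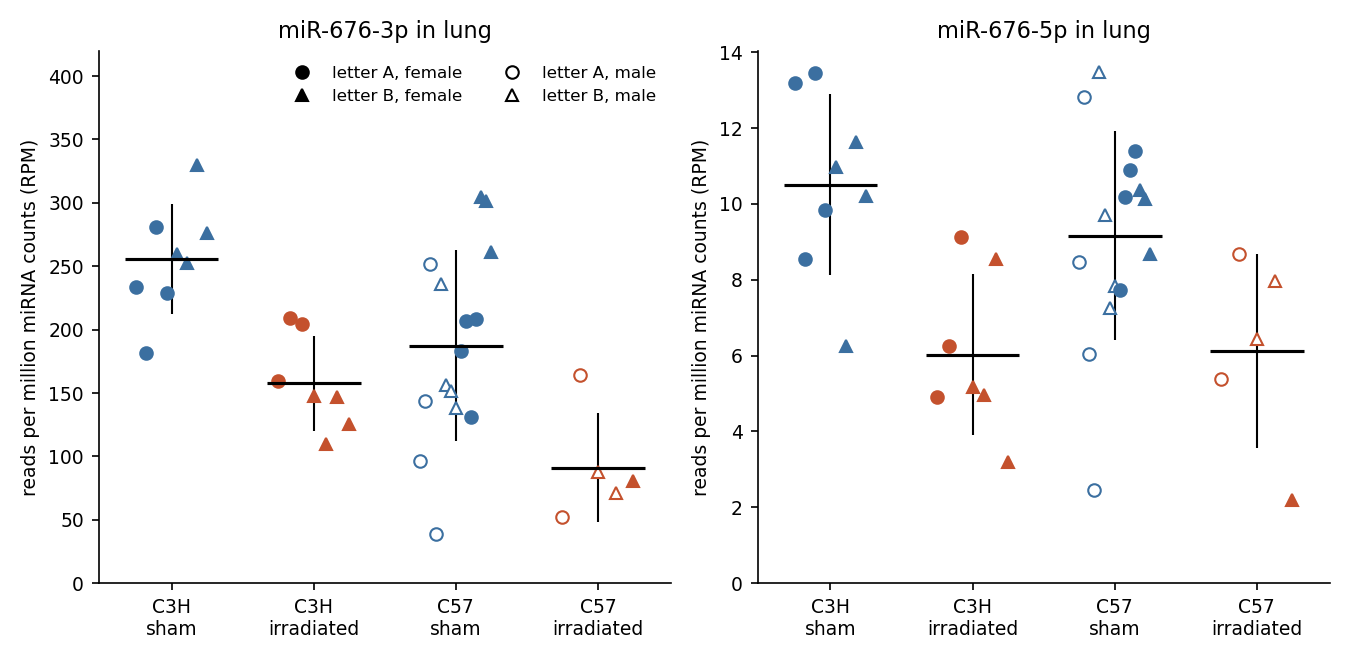
Abundance of miR-676-3p (left) and miR-676-5p (right) in each lung library, in RPM on linear axes from 0; circles are letter A, triangles letter B, filled symbols females and open symbols males, with the group mean (bar) and SD (line). Irradiated means are 158 against 255 RPM in C3H and 91.0 against 187 RPM in C57 for the 3p arm, and the lowest C57 sham library, at 39.0 RPM, lies below the irradiated ones.

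On the quantile normalised log2 scale of the limma model, the difference between irradiated and sham lung was -0.96 (95% interval -1.53 to -0.40) in C3H and -1.05 (-1.63 to -0.47) in C57 for the 3p arm. For the 5p arm it was -1.25 (-1.78 to -0.72) in C3H and -0.96 (-1.48 to -0.43) in C57. Medians over the 350 miRNAs tested were -0.08 and -0.05. In the same fits 17.1% of miRNAs were called lower (adjusted p under 0.05) and 16.3% higher in C3H, and 7.14% lower and 9.43% higher in C57; the members were chosen on this contrast, so nothing is read from their place in it. Scaling by library size alone moved the median of all miRNAs to 0.27 in C3H and 0.12 in C57, and the arms stayed below 0, at -0.72 and -1.02 for 3p and -0.83 and -0.67 for 5p.

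The same differences were computed within letters and sexes; whether they differ between letters or sexes was not tested. Within letter A the 3p difference was -0.40 in C3H and -0.62 in C57, and within letter B -1.43 and -1.47. Within letter A the 5p difference was -1.08 in C3H and -0.50 in C57, and within letter B -1.35 and -1.29. With sex as a covariate the C57 3p difference was -0.92 and the 5p difference -0.95, close to the unadjusted values. Among C57 males alone, 4 irradiated against 8 sham, they were -0.78 and -0.42. Leaving out irradiated replicate 5, the female, took the C57 5p difference from -0.96 to -0.59. Without the low sham library, replicate 4, the C57 differences were -1.17 for 3p and -1.04 for 5p; this fit was added after the values were seen.

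In sham libraries alone, letter A and letter B were compared by an exact two-sided permutation test in each tissue and strain for each arm. Of 20 tests, 2 had an unadjusted p under 0.05 and 0 passed after Benjamini-Hochberg adjustment. In C3H the exact permutation p could not go below 0.0286 with 4 against 4 libraries, or 0.1 with 3 against 2 in WBC. The C3H WBC tests could therefore not pass and the other C3H tests hardly, so nothing is concluded from their not passing. In sham lung the letter B mean of miR-676-3p was higher by 0.28 log2 RPM in C3H (exact permutation p = 0.143, adjusted p = 0.346, 4 against 4) and by 0.60 in C57 (exact permutation p = 0.123, adjusted p = 0.346, 8 against 7). The largest of the 20 was the C3H heart, 0.85 higher with letter B (exact permutation p = 0.0286, the smallest that 4 against 4 libraries can give; adjusted p = 0.286).

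Cell type marker miRNAs moved in the same lungs. All 4 miRNAs of the cardiac muscle list fell in C3H lung, against 17.1% of all miRNAs tested, with a median log2 change of -1.15: miR-1a-3p by 0.60, miR-133a-3p by 0.87, miR-208a-3p by 1.42 and miR-499-5p by 1.46 on the log2 scale. In C57 lung 1 of the 4 was called, miR-499-5p, which fell by 1.15, against 7.14% of all miRNAs called lower; this call was lost under each of the 6 alternatives run on the lists. Their summed level ranged from 4759 to 7515 RPM in sham C3H lung and 2569 to 5226 RPM after WTLI, and in C57 from 2724 to 7697 and 2701 to 8560 RPM.

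The counts of the next lists are to be read against the shares of all miRNAs called, 16.3% higher and 17.1% lower in C3H and 9.43% and 7.14% in C57. The endothelial miRNAs miR-126a-3p and miR-126a-5p summed to 380400 to 444400 RPM in sham C3H lung and 297000 to 390100 RPM after WTLI, and in C57 to 212100 to 451400 and 285300 to 352300 RPM. miR-126a-5p fell by 0.73 in C3H, and 0 of the 2 were called in C57. Among 5 epithelial miRNAs of the miR-200 family, 1 was called in C3H (miR-200b-3p, which fell by 0.55) and 0 in C57, and their summed levels overlapped. Of 5 miRNAs of ciliated epithelium, 1 rose in each strain, miR-449a-5p, by 1.51 in C3H and 0.76 in C57, the latter call being lost with the looser filter of at least 1 count in any library. The list's median was -0.03 in C3H, with 3 of 5 below 0, and -0.24 in C57, with 4 of 5 below 0, and the summed levels overlapped between sham and irradiated lung. Of 5 mesenchymal miRNAs, miR-199a-3p rose by 0.61 in C3H and miR-145a-5p fell by 0.53 in C57, where the call was lost with TMM factors, library size alone or the looser filter.

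Of 5 leukocyte and 4 erythrocyte miRNAs, limma called 0 in either strain, with medians of 0.09 and 0.66 in C3H and 0.38 and -0.9986 in C57. Summed erythrocyte levels ran from 181 to 1134 RPM in sham C3H lung and 289 to 2823 RPM after WTLI, and in C57 from 106 to 2121 and 81.0 to 470.5 RPM. Summed leukocyte levels ran from 3397 to 4826 and 2552 to 7019 RPM in C3H, and from 2393 to 9748 and 5564 to 6829 RPM in C57. These counts change with the method, as given at the end. What part the marker changes have in the miR-676 values was not tested.

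Other miRNAs of the X chromosome were called in both directions in lung. Of 158 such rows 48 were tested, of which 7 were called higher and 3 lower in C3H, and 2 higher and 5 lower in C57. Over all miRNAs tested 16.3% were called higher and 17.1% lower in C3H, and 9.43% and 7.14% in C57. Their median change was -0.01 in C3H and -0.06 in C57, beside -0.08 and -0.05 over all miRNAs tested. Of the 158 rows 5 also have a locus on another chromosome, from which their reads cannot be told apart. The most abundant, let-7f-5p, is one of these 5 and differed by -0.13 and -0.10 without passing the test, and miR-322-5p rose by 0.61 in C3H and 0.98 in C57.

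Outside lung, neither arm was called by limma after WTLI in heart, brain, WBC or RBC of either strain. In the same fits limma called 16.7% of all miRNAs in the heart of C3H and 3.53% in that of C57, and 0% in brain, WBC and RBC of each strain. At an unadjusted p under 0.05 limma marked 9 and 53 miRNAs in brain, 20 and 12 in WBC and 43 and 14 in RBC (C3H and C57). edgeR and DESeq2 also called 0 in WBC of both strains and in C3H brain. In C57 brain edgeR called 3 miRNAs and DESeq2 called 3 higher and 6 lower. In RBC edgeR called 12 in C3H and 1 in C57, and DESeq2 called 19 higher and 3 lower in C3H and 1 in C57.

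The heart, which lies in the thorax with the lung, was compared within each strain. In C3H heart miR-676-3p ranged from 124 to 328 RPM in sham (median 217, n = 8) and from 113 to 294 RPM after WTLI (median 208, n = 7), a log2 change of -0.03 (95% interval -0.65 to 0.60, adjusted p = 0.957). The letters gave values of opposite sign in C3H heart, 0.61 within letter A (adjusted p = 0.318, limma) and -0.68 within letter B (adjusted p = 0.277, limma). With letter A the mean was 154 RPM in 4 sham and 217 RPM in 3 irradiated hearts, and with letter B it was 274 RPM in 4 sham and 194 RPM in 4 irradiated hearts, the latter 4 all below the lowest letter B sham value of 225 RPM. In C57 heart the sham range was 89.4 to 369 RPM (median 198, n = 15). The irradiated C57 hearts had 105, 73.9, 119.8, 86.7 and 123 RPM, each below the sham median, and 2 below the lowest sham library. The log2 change was -0.97 (95% interval -1.61 to -0.33), which missed the threshold with an adjusted p of 0.0637 in limma.

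That C57 heart value varied with the method and with how sex was treated. DESeq2 gave -1.10 with an adjusted p of 0.0162, and voom with library size alone gave -0.90 with 0.0443. With sex as a covariate the change was -0.71 (adjusted p = 0.127, limma), and among C57 males alone it was -0.44, with an adjusted p of 0.514. The one irradiated female had 123 RPM, below the lowest of the 7 sham females at 225 RPM. The strain difference in the heart response was 0.95 (95% interval 0.05 to 1.84, adjusted p = 0.282 for the limma interaction).

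Marker miRNAs also moved in the irradiated hearts, and their part in the miR-676 values was not tested. Of the ciliated epithelium list 4 of 4 tested rose in C3H heart, against 16.7% of all miRNAs called, with a median of 2.32, and 2 of 4 rose in C57 heart, against 3.53%, with a median of 1.17. The members that rose are miR-34b and miR-34c miRNAs, which are also known as p53 targets. Their sum ran from 61.9 to 200.2 RPM in sham and 184 to 724 RPM in irradiated C3H hearts, and in C57 from 28.8 to 122 and 77.8 to 178 RPM. Of 5 leukocyte miRNAs miR-150-5p, a lymphocyte miRNA, fell by 1.63 in C3H and 0.85 in C57. The list's median was -0.30 in C3H and 0.33 in C57, where the other 4 members had values above 0 and the sums overlapped, at 986 to 2603 RPM in sham and 1776 to 2374 RPM in irradiated hearts. Of 4 erythrocyte miRNAs 2 fell in C3H and limma called 0 in C57. The mesenchymal and cardiac muscle lists had 1 member lower each in C3H, where the cardiac muscle sum ran from 216200 to 291000 RPM in sham and 50690 to 246800 RPM in irradiated hearts.

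Brain was shielded from the beam and its levels overlapped throughout. The 3p change was 0.09 (95% interval -0.19 to 0.36) in C3H and 0.16 (-0.11 to 0.44) in C57, the narrowest intervals of the 5 tissues. In WBC the 3p change was 0.14 (-0.50 to 0.79) in C3H and -0.46 (-1.05 to 0.12) in C57. In RBC it was 0.38 (-0.19 to 0.94) in C3H and -0.21 (-0.79 to 0.36) in C57. Intervals for the 5p arm were wide in WBC, where the C57 change was -0.66 (-1.64 to 0.32).

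**Figure D2:**
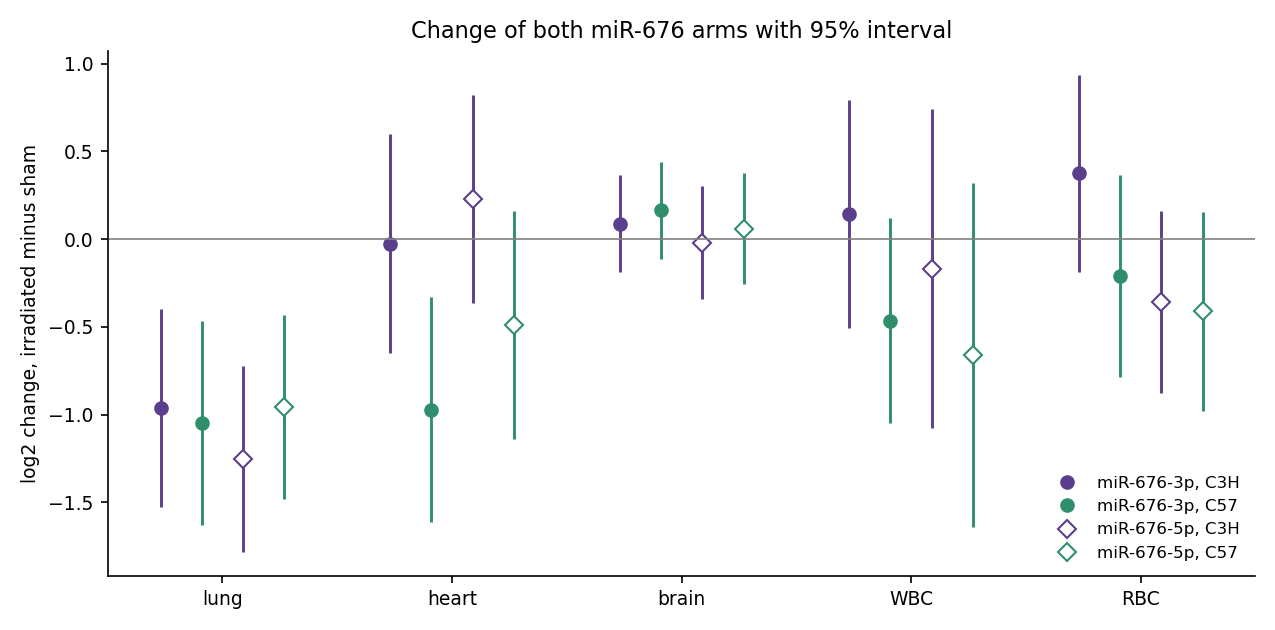
Difference between irradiated and sham libraries in log2 abundance (vertical axis) for each tissue, with circles for miR-676-3p and diamonds for miR-676-5p, purple for C3H and green for C57; lines are 95% intervals of the limma fit. The lung values, from -1.25 to -0.96, belong to the contrast on which miR-676 was chosen and are a description; the C57 heart value for the 3p arm is -0.97, with an interval from -1.61 to -0.33.

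In sham mice miR-676-3p was among the more abundant miRNAs of each tissue. By mean RPM it ranked 86 in C3H and 102 in C57 lung, 77 and 73 in heart, 91 and 95 in brain, 47 and 68 in WBC and 52 and 61 in RBC. miR-676-5p ranked between 130 (C3H RBC) and 267 (C3H brain).

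Scaled by library totals, as RPM, the brain held the most miR-676-3p (TMM scaling reversed its place above WBC and RBC), 751 ± 95.1 RPM (SD, n = 8) in C3H and 759.7 ± 194 RPM (SD, n = 15) in C57. WBC followed with 502 ± 129 RPM (SD, n = 5) and 398 ± 179 RPM (SD, n = 11), and RBC with 399 ± 56.6 RPM (SD, n = 8) and 245 ± 42.8 RPM (SD, n = 15). Heart had 214 ± 74.7 RPM (SD, n = 8) and 199 ± 74.8 RPM (SD, n = 15), near the sham lung levels of 255 and 187 RPM. Tissues of the same animal were compared by an exact two-sided sign-flip permutation test, 40 comparisons in all, with Benjamini-Hochberg adjustment.

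Lung lay below brain in 8 of 8 C3H pairs, by 1.56 log2 RPM (exact permutation p = 0.00781, the smallest that 8 pairs can give; adjusted p = 0.0165). It lay below brain in 15 of 15 C57 pairs, by 2.13 log2 RPM (exact permutation p = 6.1e-05, the smallest that 15 pairs can give; adjusted p = 0.000407). Lung was also below RBC, by 0.65 in C3H (adjusted p = 0.0165, exact permutation) and 0.51 in C57 (adjusted p = 0.0413, exact permutation). Lung minus heart, neighbours in the order, did not pass after adjustment. It was 0.32 in C3H, with lung higher in 6 of 8 pairs (exact permutation p = 0.0469, adjusted p = 0.0721). In C57 it was -0.13 (exact permutation p = 0.584, adjusted p = 0.614). With 5 pairs the C3H comparisons with WBC could not go below an exact permutation p of 0.0625.

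Of 20 comparisons, 13 passed for miR-676-3p and 7 for miR-676-5p, and with TMM scaling 10 and 3. For the 5p arm brain was again highest in RPM, 19.6 ± 4.21 RPM (SD, n = 8) in C3H and 22.7 ± 4.44 RPM (SD, n = 15) in C57, against 7.10 to 13.4 RPM as the means of the other sham groups.

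The place of the brain rested on scaling by library totals. TMM factors over all 167 libraries multiply those totals, and their log2 mean was 1.12 (C3H) and 1.08 (C57) in brain and -0.51 and -0.64 in RBC. With them the 3p brain minus RBC difference turned from 0.92 to -0.71 (C3H) and from 1.61 to -0.10 (C57). The 3p brain minus WBC difference turned likewise, from 0.63 to -1.31 and from 1.02 to -0.17. Under this scaling lung remained below brain for the 3p arm, by 0.51 in C3H (adjusted p = 0.0781, exact permutation) and 1.16 in C57 (adjusted p = 0.00244, exact permutation), and below RBC by 1.22 and 1.26.

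**Figure D3:**
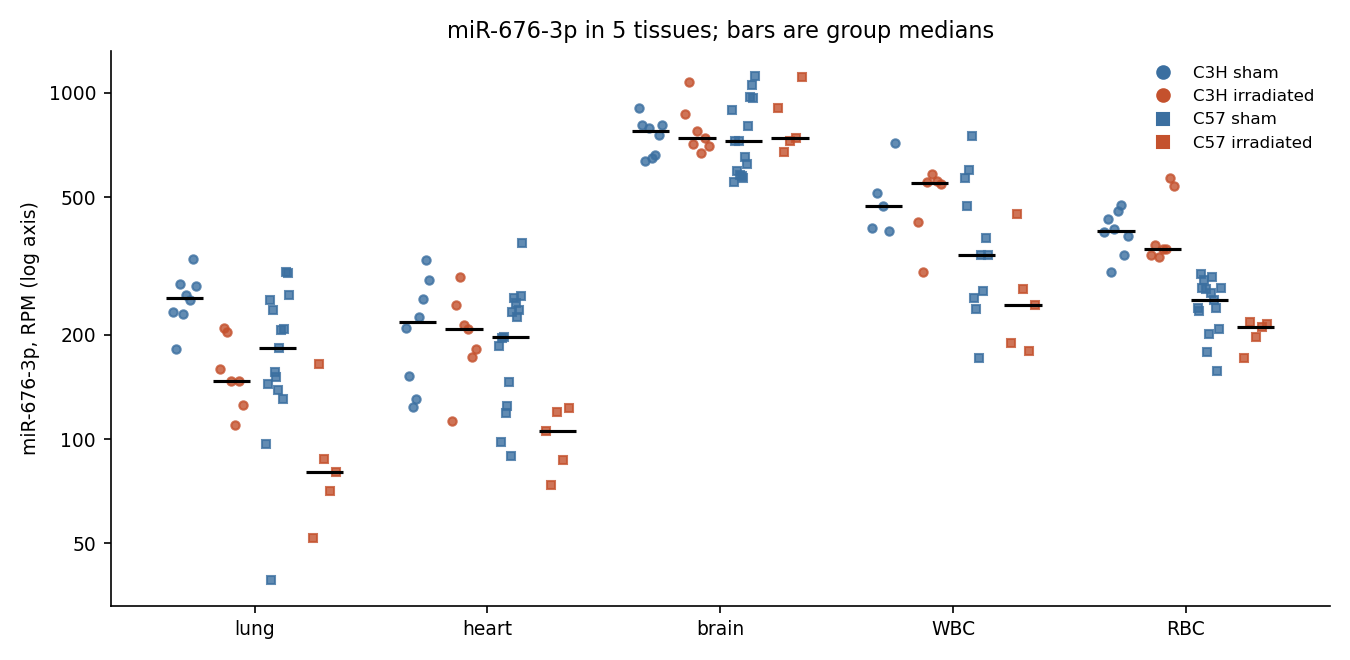
miR-676-3p in RPM (log axis) in each library of 5 tissues, circles for C3H, squares for C57, blue for sham, orange for irradiated, with bars at group medians. Sham medians run from 183 RPM in C57 lung to 774 RPM in C3H brain, and in brain the irradiated medians of 738 and 743 RPM lie beside those of sham.

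The 3p arm made up most of the miR-676 counts in each tissue. In sham libraries its share was 96.0% ± 0.88 (SD, n = 8) in C3H and 94.9% ± 1.81 (SD, n = 15) in C57 lung, and 97.5% ± 0.44 (SD, n = 8) and 97.0% ± 0.72 (SD, n = 15) in brain. Lung had the lower share in 8 of 8 C3H pairs, by 1.45 percentage points (exact permutation p = 0.00781, adjusted p = 0.0303), and in 14 of 15 C57 pairs, by 2.14 points (exact permutation p = 0.000244, adjusted p = 0.00195). In C57 the share was also lower in lung than in heart, by 1.05 points (adjusted p = 0.0303, exact permutation), and than in RBC, by 2.11 points (adjusted p = 0.0436, exact permutation). These 4 of 8 comparisons passed. This ratio within a library does not depend on how libraries are scaled.

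In sham C57 mice miR-676-3p was lower in male than in female heart. Males were also the younger sex at the start, so these comparisons cannot tell sex from age. The 8 males ranged from 89.4 to 198 RPM (median 135) and the 7 females from 225 to 369 RPM (median 247), so the sexes did not overlap. Means were 145 ± 43.8 RPM (SD, n = 8) and 261 ± 49.3 RPM (SD, n = 7), and limma gave a log2 difference of -1.16 (SE 0.24, adjusted p = 0.000811). Many miRNAs differed in that comparison, 39.4% of 312 tested. Within letter B, 4 males and 3 females, the difference was -1.26 (adjusted p = 2.69e-06, limma), and within letter A, 4 and 4, it was -1.07 (adjusted p = 0.0847, limma); both were added after the values were seen.

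In brain, too, males had less miR-676-3p. They ranged from 551 to 894 RPM (median 586) and females from 624 to 1119 RPM (median 964), with 5 of 8 males below each female, and the log2 difference was -0.35 (SE 0.12, adjusted p = 0.0306, limma), where 22.9% of 433 miRNAs were called. With the looser filter of at least 1 count in any library it missed the threshold (adjusted p = 0.0548, limma). Within letter A it was -0.13 and within letter B -0.63 (adjusted p = 0.000306, limma), both added after the values were seen. It was -0.53 with voom and TMM factors, -0.54 with edgeR and -0.60 with DESeq2.

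In lung, males ranged from 39.0 to 252 RPM (median 148) and females from 131 to 305 RPM (median 209). The log2 difference of -0.57 (SE 0.27) had an adjusted p of 0.142 in limma, with 7.71% of miRNAs called, and was -0.36 without sham replicate 4. WBC values were -0.40 (adjusted p = 0.413, 12.03% called), of the opposite sign to the RPM means of 436 in males and 332 in females, and scaling by library size alone turned it to 0.22. RBC showed 0.01 (adjusted p = 0.977, 18.8% called). The 5p arm was called in none of the 5 tissues by limma; its values ran from -1.11 in WBC (adjusted p = 0.113) to 0.15 in RBC. Whether the sex difference itself differed between tissues was not tested.

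Other X-chromosome miRNAs were called in both directions between the sexes. In heart 41 were tested, with 5 called higher and 9 lower in males and a median of -0.11, beside 39.4% of all miRNAs called and a median of -0.07. In brain 47 were tested, with 5 higher and 3 lower and a median of 0.09, beside 22.9% called and a median of 0.13. Cell type markers differed between the same sham C57 mice, and their part in the miR-676 values was not tested. Their counts are to be read against the 39.4% of all miRNAs called in heart and 22.9% in brain. In heart the 5 leukocyte miRNAs summed to 1672 to 2603 RPM in males and 986 to 1592 RPM in females, without overlap, with 1 called higher and 1 lower. The 5 mesenchymal miRNAs summed to 43910 to 60130 RPM in males and 36270 to 44260 RPM in females, with 3 called higher and 1 lower. The cardiac muscle list overlapped, at 236400 to 294100 and 222500 to 298900 RPM, with 2 of 4 called higher in males. The 4 erythrocyte miRNAs summed to 481 to 1353 RPM in males and 340 to 704 RPM in females, with 2 called higher and a median of 0.56, and 1 of 2 endothelial and 1 of 4 ciliated epithelium miRNAs were called, higher and lower. In brain all 5 epithelial miRNAs of the miR-200 family were called lower in males, with a median of -4.19, and summed to 172 to 2165 RPM in males and 352 to 41040 RPM in females. The 5 ciliated epithelium miRNAs summed to 1923 to 2329 RPM in male and 1006 to 1932 RPM in female brain, with 3 called higher in males. Of 3 cardiac muscle miRNAs tested in brain 2 were called higher in males, with a median of 0.49, and of 4 erythrocyte miRNAs 1 was called lower.

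The sham C57 libraries of this comparison are also the controls of the C57 irradiation comparison.

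**Figure D4:**
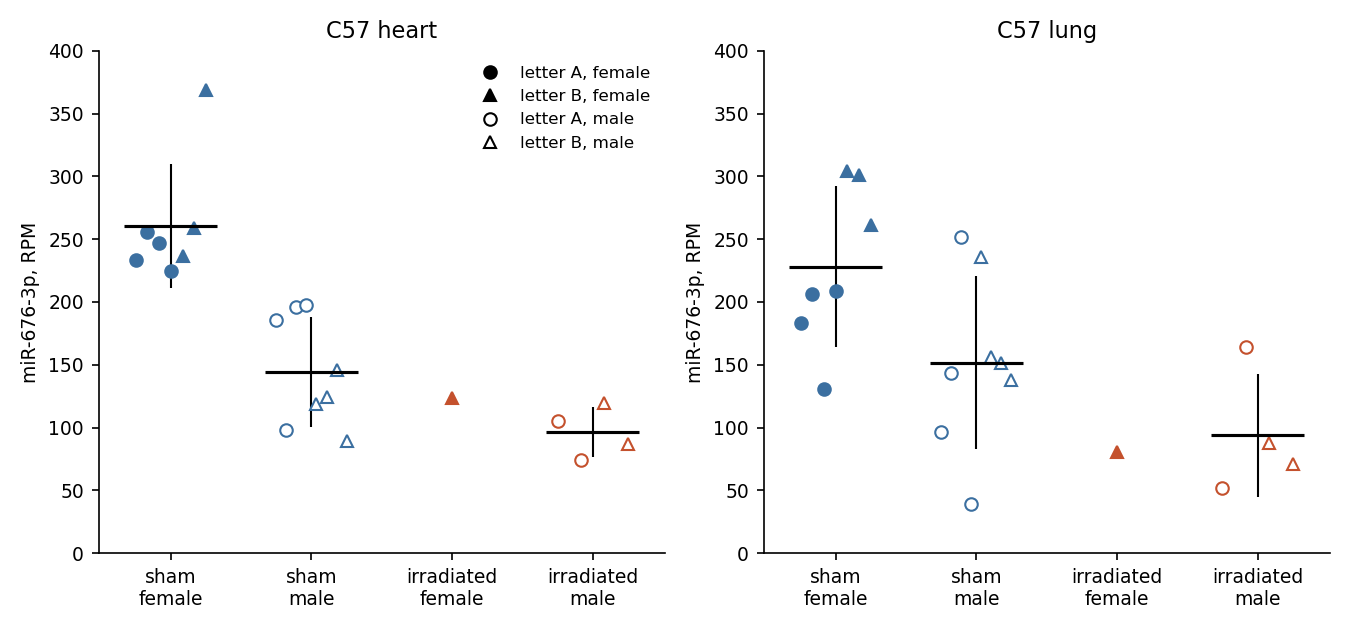
miR-676-3p in RPM (linear axis from 0) in C57 heart (left) and lung (right), split by treatment and sex; circles are letter A, triangles letter B, with mean (bar) and SD (line) for groups over 2. In heart the sham females (225 to 369 RPM) lie above the sham males (89.4 to 198 RPM), and the irradiated female, at 123 RPM, lies among the males.

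Sham females of the strains differed in blood. In WBC miR-676-3p ranged from 399 to 717 RPM in 5 C3H females and from 268 to 379.9 RPM in 4 C57 females, without overlap, and the log2 difference was 1.08 (SE 0.35, adjusted p = 0.0263, limma), where 24.7% of 291 miRNAs were called. Scaling by library size alone gave 0.57 (adjusted p = 0.239, limma). The call was also lost without C57 replicate 12 or 15 or C3H replicate 4, 5 or 6, with differences from 0.98 to 1.17 over all 9 such fits, which were added after the values were seen. In RBC miR-676-5p was higher in C3H by 1.10 log2 units (SE 0.27, adjusted p = 0.00401, limma), where 19.7% of 229 miRNAs were called. The C3H values ran from 9.24 to 17.3 RPM and those of 7 C57 females from 3.32 to 17.8 RPM, so the groups overlapped.

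Markers of blood cells differed between the same females, and their part in these values was not tested. In WBC 2 of 5 leukocyte miRNAs were called higher and 1 of 4 erythrocyte miRNAs lower in C3H, against 24.7% of all miRNAs. There the erythrocyte sums ran from 30120 to 44650 RPM in C3H and 44260 to 63220 RPM in C57, and the leukocyte sums from 15270 to 22430 and 16290 to 19890 RPM. In RBC 2 of 5 leukocyte miRNAs were called lower in C3H, against 19.7%, with sums from 19780 to 36640 RPM in C3H and 17660 to 45240 RPM in C57.

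In RBC the 3p arm differed by 0.44 (adjusted p = 0.301), but passed with voom and TMM factors (0.73, adjusted p = 0.0481) and with library size alone (0.74, adjusted p = 0.000841). In heart the 3p difference was -0.54 (adjusted p = 0.0716, with 38.5% of miRNAs called) and passed with TMM factors (-0.74, adjusted p = 0.0297). In lung the strains differed by 0.18 for 3p (95% interval -0.35 to 0.71, adjusted p = 0.709, with 15.1% called), and in brain by -0.06 (95% interval -0.30 to 0.17, adjusted p = 0.726, with 15.9% called).

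The miRNA whose lung values were most like those of miR-676-3p was miR-491-5p, on chromosome 4. Over the 35 lung libraries Pearson's r of log2 RPM was 0.92 (Spearman's rho 0.88), 0.92 after subtracting each group's mean, and 0.86 without the 2 libraries farthest from the 3p median. It is given here with its seed in capitals, since it shares neither the seed nor the chromosome of miR-676-3p (chr4:88122057-88122078, plus strand, GRCm38.p6).
miR-491-5p: aGUGGGGAacccuuccaugagg
In sham lung it stood at 32.9 ± 7.79 RPM (SD, n = 8) in C3H and 19.4 ± 7.99 RPM (SD, n = 15) in C57, and in irradiated lung at 24.0 ± 7.12 RPM (SD, n = 7) and 10.97 ± 8.34 RPM (SD, n = 5). The lowest C57 sham library for miR-676-3p, replicate 4, was also the lowest for miR-491-5p, at 2.96 RPM from 6 counts.

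The next in likeness among the 348 other miRNAs tested in lung were miR-10a-5p, encoded in the Hoxb cluster (r = 0.89), miR-26a-5p (0.85) and miR-26b-5p (0.83), which share a seed with each other, and miR-181a-5p (0.78). The 5p arm of the same hairpin came only at place 21, with r = 0.64, and it had 5 to 51 counts per lung library. The points share library depth and the irradiation contrast by which miR-676 was chosen, so these correlations are descriptions.

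Across the mean levels of the 10 sham groups the order was another. miR-7a-5p, known for neural and endocrine tissue, was most like miR-676-3p (r = 0.92), followed by miR-340-5p (0.91), miR-328-3p (0.90), miR-491-5p (0.87) and miR-219a-5p (0.86), known for oligodendrocytes. The 5p arm had r = 0.89. This order depends on the scaling: with TMM factors, a calculation added after the values were seen, r was 0.53 for miR-7a-5p, 0.71 for miR-340-5p, 0.63 for miR-491-5p and 0.36 for miR-219a-5p, while miR-328-3p and the 5p arm kept r near 0.90. The miRNA most like miR-676-3p was then miR-122-5p, known for liver (r = 0.93). miR-7a-5p, miR-340-5p, miR-491-5p, miR-219a-5p and the 5p arm each had their highest mean RPM in brain in both strains. miR-328-3p was highest in brain in C57, but in C3H in WBC (403 against 394 RPM in brain). The groups share animals across tissues. miR-491-5p was the one miRNA in both lists, with 201 RPM in C3H and 176 RPM in C57 sham brain.

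**Figure D5:**
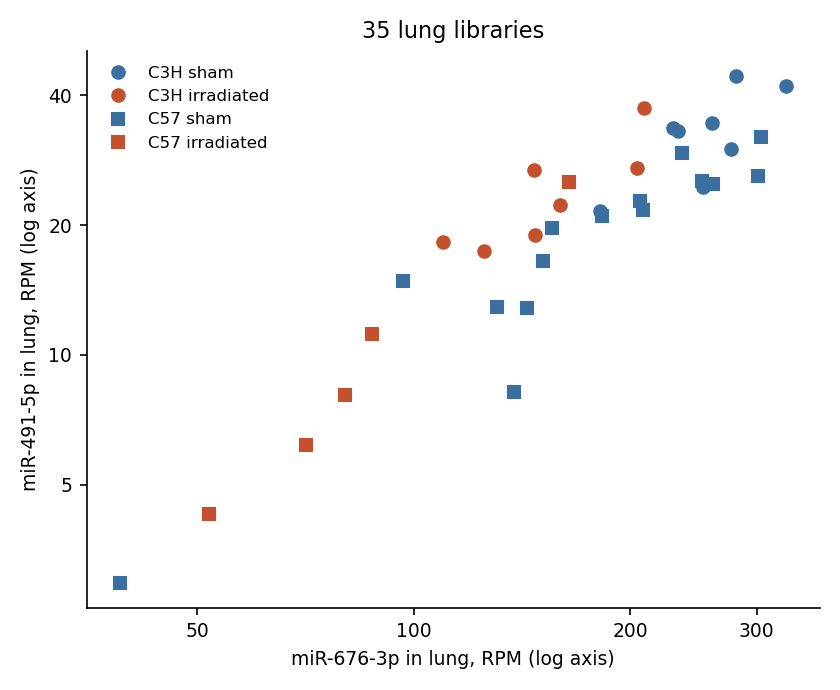
miR-491-5p against miR-676-3p in RPM (both log axes) in the 35 lung libraries, circles for C3H, squares for C57, blue for sham, orange for irradiated. The points lie along one band with Pearson's r = 0.92 on the log2 scale, and the lowest point is the C57 sham replicate 4, at 39.0 and 2.96 RPM.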

How the data were processed

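miRNA was extracted from tissue and blood fractions, made into QIAseq miRNA libraries and sequenced. The authors mapped reads to mm10 with BaseSpace tools and deposited whole-number counts per miRNA, one table per tissue; use of molecular identifiers and treatment of reads matching several loci are not given in the sources used here. RPM was computed as counts divided by the library's total miRNA counts. Depth was 1794995 to 7865102 counts, and intervals of counting error alone are not given. The limma and letter tests set a difference against the spread between libraries of different animals, which includes counting error. The paired tests use the differences within animals. Libraries of a group differed by more than sampling noise (smallest chi-square per degree of freedom 15.5).

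The members and lists were chosen with earlier results of these data known. Named miRNAs were both arms, those sharing the 3p seed, the 5 most like miR-676-3p by each of 2 measures, and up to 4 of each list by abundance. Counts were filtered (edgeR 4.0.16, at least 10 counts in enough libraries, 15 in total) and quantile normalised by voom. They were fitted with limma 3.58.1 (R 4.3.3) per tissue, over strain and treatment, or with both C57 groups also split by sex. Adjusted p under 0.05 was called. The models were tested on simulated lung counts. Tissue and letter comparisons used exact permutation tests on log2 RPM (pseudocount 0.5 counts; scipy 1.17.1), paired by the animal number in the sample titles (between tissues of an animal, miR-676-3p had r from -0.54 to 0.70). The 3p share needed at least 10 counts of the arms together. Alternatives were edgeR, DESeq2 1.42.0, other scaling and filters, covariates, subsets and left-out libraries.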

Additional observations from a re-analysis of the deposited data

Results flagged for a closer look

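The 15 groups of 4 to 10 libraries were examined for a sample far from the others in each arm, and 1 was found in 30 such sets. Chance marks about 1 in 20, so this number is no more than chance gives. It was sham C3H WBC replicate 1, with 19.8 RPM of miR-676-5p, while the other 4 libraries of its group had 6.93 to 10.4 RPM. Its gap to the nearest of them was 0.73 of the group's range. It enters each C3H WBC result of miR-676-5p: the irradiation, strain and letter comparisons, the tissue comparisons and the 3p share.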

How the results depend on the processing

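The lung differences of both arms kept their direction under each alternative that tested them. The stricter filter of at least 10 counts in every library left out miR-676-5p, whose lowest lung count was 5. Leaving out a library gave -1.05 to -0.84 (C3H 3p), -1.33 to -1.13 (C3H 5p), -1.24 to -0.92 (C57 3p) and -1.10 to -0.59 (C57 5p). The C3H 3p difference was -0.40 within letter A and -1.43 within letter B, and the C3H 5p difference -0.83 with library size alone. Except where an alternative had fewer libraries or miRNAs by construction, the causes of the changes listed here were not tested. Depth limits the 5p arm most.

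Calls were gained for C57 heart 3p with DESeq2 (-1.10) and library size alone (-0.90), for the female strain difference in 3p with TMM factors in heart (-0.74) and RBC (0.73) and with library size alone in RBC (0.74), and within letter B for the sex differences in heart 5p (-0.86, adjusted p = 0.0484, limma) and lung 3p (-0.64, adjusted p = 0.0112, limma). Calls were lost for the female strain difference in WBC 3p with library size alone (0.57) and without any of 5 libraries (0.98 to 1.17 over all 9 left out in turn), for brain 3p between the sexes within letter A (-0.13) and with the looser filter (-0.35), and for heart 3p between the sexes within letter A (-1.07).

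Some values that had not been called changed sign. With DESeq2 and edgeR these were C3H heart 3p (0.033 and 0.017), the female strain difference in lung 5p (0.094 and 0.11), the RBC 5p sex difference (-0.058, DESeq2) and C57 brain 5p (-0.0062, edgeR). With TMM factors C3H heart 3p was 0.089 and the lung 5p strain difference 0.072, and the looser filter gave 0.0065 for the latter. With library size alone it was 0.056, C3H WBC 3p -0.023, the WBC 5p strain difference -0.44, and the sex differences 0.22 (WBC 3p), 0.00013 (brain 5p) and -0.0074 (RBC 5p). Within letter A the C3H changes were -0.30 (RBC 3p), -0.12 (WBC 3p) and 0.61 (heart 3p), and the sex differences -0.35 (RBC 3p), 0.047 (WBC 3p) and 0.14 (brain 5p). Within letter B changes were 0.087 (C57 RBC 3p), 0.074 (C3H WBC 5p), 0.10 (C3H brain 5p), -0.16 (C57 brain 5p) and -0.077 (C3H heart 5p), and the RBC 5p sex difference -0.050. Leaving out a library gave -0.14 to 0.13 (C3H heart 3p), -0.091 to 0.087 (C3H brain 5p), -0.0057 to 0.10 (C57 brain 5p) and -0.36 to 0.00028 (C3H WBC 5p).

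For tissues, TMM scaling left 3 of 20 passing for 5p, and dropping the animal pairing (no replicate block) gave 11 of 20 and turned C3H lung minus WBC 5p to 0.015. TMM turned 3p brain minus WBC to -1.31 (C3H) and -0.17 (C57) and brain minus RBC to -0.71 and -0.10. It turned 5p differences in C3H to 0.15 (lung minus brain), -0.92 (brain minus WBC), -1.07 (brain minus RBC) and 0.22 (WBC minus RBC), and in C57 to -0.24 (lung minus heart), -0.36 (lung minus RBC), -0.12 (heart minus RBC) and -0.14 (brain minus WBC). C3H RBC letter differences became -0.089 (3p) and -0.023 (5p). No paired analysis was possible for irradiation, sex, strain or letter because those groups are different animals.

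Over all miRNAs in lung, library size alone called 95 higher and 21 lower in C3H and 60 and 12 in C57. DESeq2 called 38 lower and the looser filter 15 lower of 1058 tested in C57, and the stricter filter, which left 228 miRNAs, 36 higher in C3H and 21 in C57. The reported fit called 57 higher and 60 lower in C3H and 33 and 25 in C57, of 350. For the lists below, the calls over all 350 miRNAs (higher and lower) were 59 and 63 with edgeR, 65 and 64 with DESeq2 and 55 and 60 with TMM in C3H, and 41 and 31, 46 and 38 and 43 and 30 in C57. Of the lists in C3H, epithelial calls were 2 with edgeR, DESeq2 or TMM, endothelial 2 with these or library size alone, mesenchymal 3 with edgeR or DESeq2 and 2 with TMM, library size alone or the stricter filter, and leukocyte 1 with library size alone. In C57 the single cardiac muscle call fell to 0 under each of the 6 alternatives run on lists, the ciliated call to 0 with the looser filter and the mesenchymal call to 0 with TMM, library size alone or the looser filter. There DESeq2 called 1 leukocyte, 1 erythrocyte and 11 X-chromosome miRNAs, library size alone called 2 leukocyte miRNAs, and the stricter filter called 4 X-chromosome miRNAs, where it called 21 higher and 18 lower over all 228.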
